A study of Macaca fascicularis with 3 samples.

Results

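TKTL1, which encodes transketolase-like 1, was followed with 5 enzymes of the pentose phosphate pathway in cynomolgus monkey (Macaca fascicularis) germ cells. The 6 genes, TKTL1, TKT, TALDO1, PGD, RPIA and RPE, were taken by symbol from the 26017 monkey features of 3 single-cell RNA libraries, and all 6 were found. The germ cells came from 1 embryonic stem cell line, 15XRi-AGVT#7, labelled wildtype, which carries the reporters TFAP2C-EGFP and DDX4-tdTomato. They were cultured as aggregates (xrOvary, labelled ag49+52) with mouse fetal ovarian somatic cells taken at embryonic day E13.5, E14.5 or E15.5, and each stage gave 1 library. Live germ cells were sorted by high forward-scatter width and either reporter, live mouse cells by low width and no reporter, and the sorted cells were mixed before loading. TKTL1 and its partners were selected on TKTL1's measured level, which was known to differ among these cells and libraries. Its own values are therefore a description, with no test. Sets of 3 values run in the order E13.5, E14.5, E15.5.

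The pentose phosphate pathway branches from glycolysis at glucose-6-phosphate. Its oxidative arm, which includes PGLS and PGD, yields NADPH for biosynthesis and for keeping glutathione reduced, and its non-oxidative arm interconverts sugar phosphates and supplies ribose for nucleotides. In that arm RPIA and RPE isomerise ribulose-5-phosphate, and the thiamine-dependent transketolase TKT and the transaldolase TALDO1 exchange carbon units between sugars. TKTL1 is an X-linked paralog of TKT that lacks part of the thiamine-binding region in human, and whether it is an active transketolase has been disputed.

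Germ cells were taken as barcodes with 10000 or more UMIs (unique molecular identifiers, each standing for 1 captured RNA molecule) and 2 to 20% of them in the 13 mitochondrially encoded genes. This gave 537, 536 and 1113 of 2807, 1565 and 3455 barcodes, with medians of 55620, 43003 and 48553 UMIs. DDX4, a germ cell RNA helicase, had a UMI in 94.0% to 96.6% of them. Barcodes with under 2% mitochondrial UMIs and at least 1000 UMIs, 1665, 725 and 1775 in number, stood for mouse cells. The features are monkey genes alone, and mouse RNA appears only through reads that were assigned to one of them. Libraries shared 199 to 643 barcode sequences in pairs, none of them a germ cell in both libraries. Shared sequences that were a germ cell in 1 library only were not counted. The 219 SYCE3-high cells are the 10% of germ cells with the most SYCE3, a component of the synaptonemal complex, at 253 CPM or more (CPM, UMIs scaled to a total of 1000000). Of the rest, 435 POU5F1-high cells lie at 324 CPM or more of this early germ cell factor, and 472 STRA8-positive cells have 50 CPM or more of this meiotic entry gene. The other 1060 cells are called neither. These states are ranges and not cell types: 62, 204 and 382 germ cells lay within 1.5-fold of the POU5F1, SYCE3 and STRA8 limits. The cells are labelled early oogonia, and the markers of that stage were high in POU5F1-high cells only. The 7 early oogonia markers without POU5F1, which defined the state, summed to 1115 to 1232 CPM there against 35.2 to 207 CPM in the other states. The 12 meiotic prophase markers, which include the state-defining SYCE3, summed to 2599 to 3306 CPM in SYCE3-high cells. In the other states they summed to 157 to 533 CPM.

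TKTL1 was low in the E13.5 library and several-fold higher in the other libraries. Summed germ cells had 4.34 CPM of TKTL1 in E13.5 (95% exact Poisson interval 3.64 to 5.13, 136 UMIs), 39.1 CPM in E14.5 (36.6 to 41.6, 951 UMIs) and 34.5 CPM in E15.5 (33.0 to 36.1, 1986 UMIs). Mouse barcodes had 1.69, 5.50 and 4.22 CPM. The ratio of CPM was 9.01 for E14.5 over E13.5 (7.52 to 10.9), 7.96 for E15.5 over E13.5 (6.69 to 9.55) and 0.884 for E15.5 over E14.5 (0.818 to 0.956). On the log2(CPM + 1) scale the differences were 2.91, 2.74 and -0.17. With 1 library per stage these have no replicate check, and intervals cover counting error only. TKTL1 passed the size rule, 2-fold on that scale with 20 CPM or more in 1 library, in both comparisons with E13.5, where 0.256% of 7426 genes (E14.5) and 0.053% of 7553 genes (E15.5) passed it upwards.

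TKTL1 RNA was found in a minority of germ cells everywhere. A TKTL1 UMI was present in 4.66% of germ cells in E13.5 (95% Clopper-Pearson interval 3.04 to 6.80, 25 of 537 cells), in 20.1% in E14.5 (16.8 to 23.8, 108 of 536) and in 15.1% in E15.5 (13 to 17.3, 168 of 1113). Thinned to 10000 UMIs per cell the shares were 2.13%, 13.1% and 9.53%, so the order of the libraries did not follow their depth. Mouse barcodes had a TKTL1 UMI in 0.240%, 0.966% and 0.958% at medians of 6457, 6699 and 5298 UMIs. Their TKTL1 UMIs were clumped, with 20 in 4 barcodes, 31 in 7 and 49 in 17. Whether some of these barcodes hold monkey germ cell RNA was not tested.

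By state, TKTL1 was nearly absent from POU5F1-high cells and stood highest in different states in different libraries. POU5F1-high cells had 0, 1.08 and 2.56 CPM of TKTL1, and neither cells had 7.17, 57.7 and 47.6 CPM. STRA8-positive cells had 0.728, 36.1 and 6.98 CPM, and SYCE3-high cells had 1.5, 48.2 and 116 CPM. Over the 3 libraries the means were 1.21 ± 1.28 CPM in POU5F1-high, 37.5 ± 26.7 in neither, 14.6 ± 18.9 in STRA8-positive and 55.2 ± 57.5 in SYCE3-high cells (SD, n = 3). POU5F1-high cells were lowest in every library and did not overlap with neither cells across libraries, whereas the order of the other neighbours did not exceed their spread. Within E15.5 the 4 states did not overlap in their counting intervals, with SYCE3-high cells (107 to 125) above neither cells (45.0 to 50.4). In E14.5 the intervals of SYCE3-high cells (39.4 to 58.2) and neither cells (53.6 to 62.0) overlapped, and in E13.5 neither cells (5.97 to 8.53) were above SYCE3-high cells (0.408 to 3.84). These intervals treat UMIs as independent, although 10 of the 104 SYCE3-high cells of E15.5 held 81.6% of their TKTL1 UMIs. By share of cells with a TKTL1 UMI, SYCE3-high and neither cells overlapped in E15.5, at 24.0% (16.2 to 33.4) against 21.7% (18.2 to 25.5). They also overlapped in E13.5, at 5% (1.04 to 13.9) against 6.34% (3.80 to 9.83). Most TKTL1 UMIs, 93.4%, 76.8% and 62.1% in the 3 libraries, came from neither cells, which held 56.5%, 52.0% and 45.0% of all germ cell UMIs.

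The share of cells with a TKTL1 UMI was also lowest in POU5F1-high cells. It was 0%, 2.31% and 4.15% there, where 0 of 64 cells in E13.5 allows a share of up to 4.69% at the floor of 3 counts (95% Clopper-Pearson upper bound 5.60%). It was 6.34%, 25.3% and 21.7% in neither cells, 3.1%, 25.6% and 8.81% in STRA8-positive cells and 5%, 29.1% and 24.0% in SYCE3-high cells. Thinned to 10000 UMIs, SYCE3-high cells had 2.32%, 16.0% and 18.5% and neither cells 3.1%, 18.0% and 14.6%. With the germ cells of all 3 libraries ordered by SYCE3 and cut into 10 bins, TKTL1 showed no steady trend: in E15.5 the lower 9 bins lay between 5.05 and 46.4 CPM and the top bin at 116 CPM. In E14.5 the highest level, 80.7 CPM, was in bin 5.

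**Figure D1:**
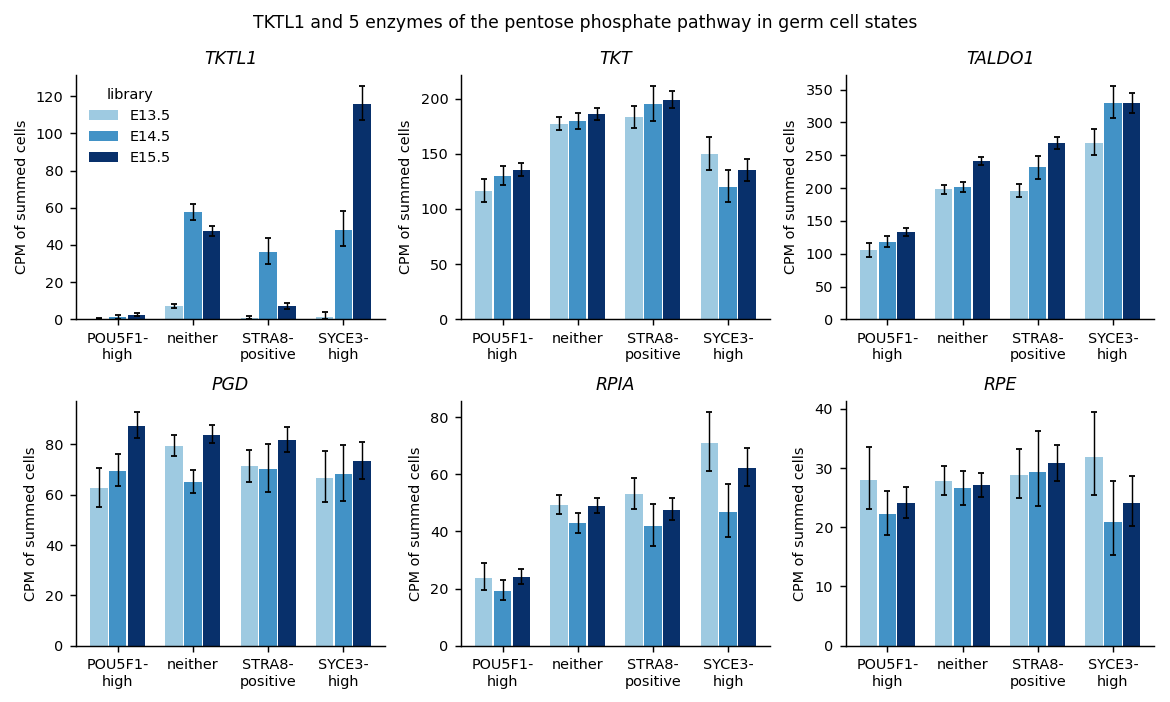
CPM (UMIs scaled to a total of 1000000, linear axis) of TKTL1 and 5 pathway enzymes in summed germ cells of each state, with 1 bar for each library and 95% exact Poisson intervals. TKTL1 runs from 0 to 116 CPM and differs between libraries within states, while TKT lies between 116 and 199 CPM in all 12 sums.

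**Figure D2:**
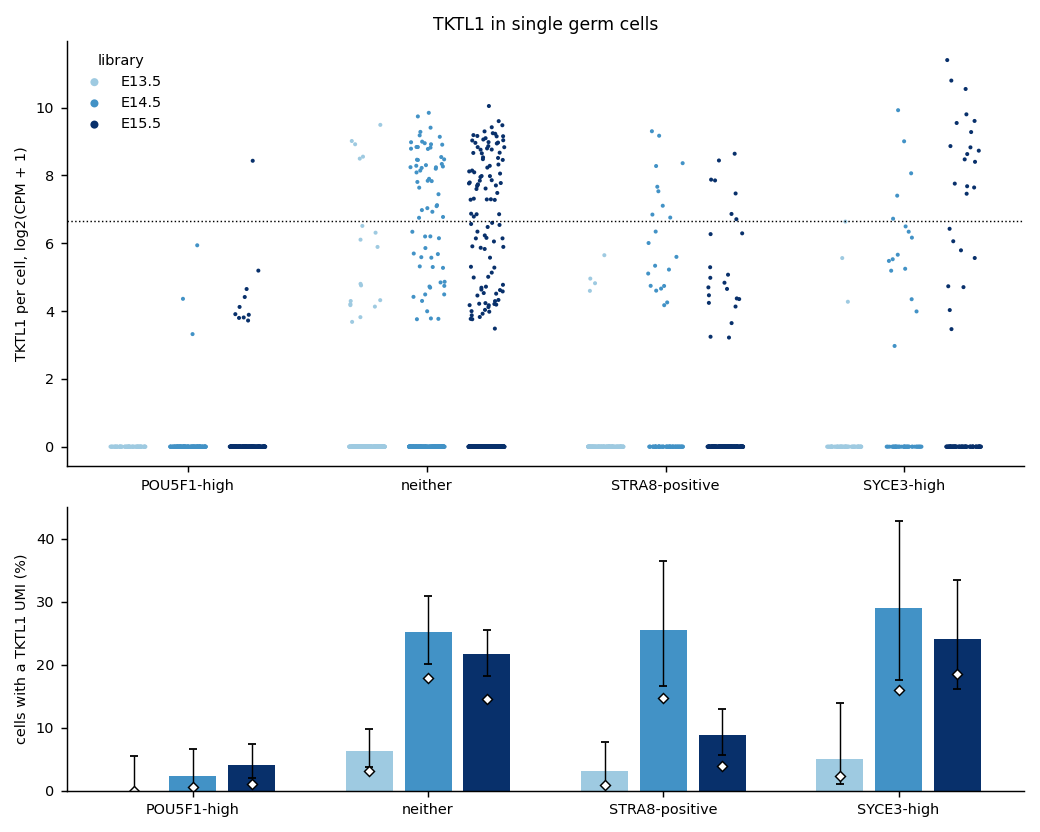
Upper panel, TKTL1 in each germ cell as log2(CPM + 1) by state and library, with a dotted line at 100 CPM. Lower panel, percent of cells with a TKTL1 UMI with 95% Clopper-Pearson intervals (bars) and the percent after thinning to 10000 UMIs (diamonds). Most cells sit at 0, and cells at or above the line are 5, 57 and 88 in the libraries in order of stage.

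Among positive cells the level was far from even. Germ cells with 100 CPM or more of TKTL1, a limit set after its values were seen, numbered 5, 57 and 88 and held 71.3%, 89.9% and 91.8% of all TKTL1 UMIs. The 10 highest cells alone held 86.0%, 34.0% and 29.2%. The highest single cell had 29, 58 and 130 UMIs, the last of them a SYCE3-high cell of E15.5. In that state the 10 highest of 104 cells held 81.6% of the TKTL1 UMIs, and 8 cells had 30 or more. The E15.5 level in POU5F1-high cells rested largely on 1 cell, with 21 of 34 UMIs.

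The fitted log2 fold changes of TKTL1 between states, given with their standard errors and no p, were 2.32 ± 0.71 for STRA8-positive over POU5F1-high cells, 2.42 ± 0.46 for SYCE3-high over STRA8-positive cells and 4.74 ± 0.58 for SYCE3-high over POU5F1-high cells, each positive in 3 of 3 libraries. With 0 UMIs in POU5F1-high cells of E13.5, the folds over that state depend on the fit's prior count and are no bounds. The folds moved with single libraries or with the POU5F1 limit. STRA8-positive over POU5F1-high was 4.24 without E15.5 and 1.01 without E14.5, and SYCE3-high over STRA8-positive was 0.53 without E15.5 and 3.73 without E14.5. With the top 30% of cells called POU5F1-high, STRA8-positive over POU5F1-high turned to -0.79, and with the top 10% it was 5.50. SYCE3-high over POU5F1-high was 1.67 and 7.97 under those limits, and 4.75 to 4.78 with any 1 library left out.

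TKT, the ubiquitous transketolase, was present in nearly every germ cell and hardly differed between libraries. All germ cells had 168, 163 and 172 CPM of TKT, and 98.3%, 96.3% and 98.8% of cells had a UMI. POU5F1-high cells had 116, 130.1 and 136 CPM, neither cells 177, 179 and 186, STRA8-positive cells 183, 195 and 199, and SYCE3-high cells 149.9, 119.9 and 135.3 CPM. The STRA8-positive sums were above the SYCE3-high sums in all 3 libraries, whereas SYCE3-high and POU5F1-high sums overlapped. TKT fell in SYCE3-high against STRA8-positive cells by 0.58 ± 0.09 on the log2 scale (edgeR, adjusted p = 1.42e-05, lower in 3 of 3 libraries). Mouse barcodes had more TKT than germ cells, 332, 371 and 525 CPM.

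As a result of the different courses of TKT and TKTL1, the make-up of transketolase RNA differed between cells. TKTL1 made up 2.50%, 19.3% and 16.7% of the UMIs of TKTL1, TKT and TKTL2 in all germ cells. In SYCE3-high cells it made up 0.976% (95% Clopper-Pearson interval 0.266 to 2.48), 28.5% (24.0 to 33.4) and 45.9% (43.2 to 48.6). In POU5F1-high cells it was 0%, 0.822% and 1.85%, against 0.505%, 1.46% and 0.797% in mouse barcodes. In E15.5 these intervals, 1.28 to 2.57 in POU5F1-high cells and 0.590 to 1.05 in mouse barcodes, did not overlap. However, 21 of the 34 TKTL1 UMIs in those POU5F1-high cells came from 1 cell, and the 49 in mouse barcodes lay in 17 barcodes. The Clopper-Pearson intervals of these shares treat UMIs as independent and do not cover the spread between cells. In SYCE3-high cells of E15.5, 24.0% of cells had a TKTL1 UMI, and 10 of 104 cells held 81.6% of those UMIs. TKTL2, the third family member, had 19, 12 and 18 UMIs in all. UMIs from the 3 prime end are not scaled by transcript length here, and reads shared by these paralogs may have been left out or split in the counting.

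**Figure D3:**
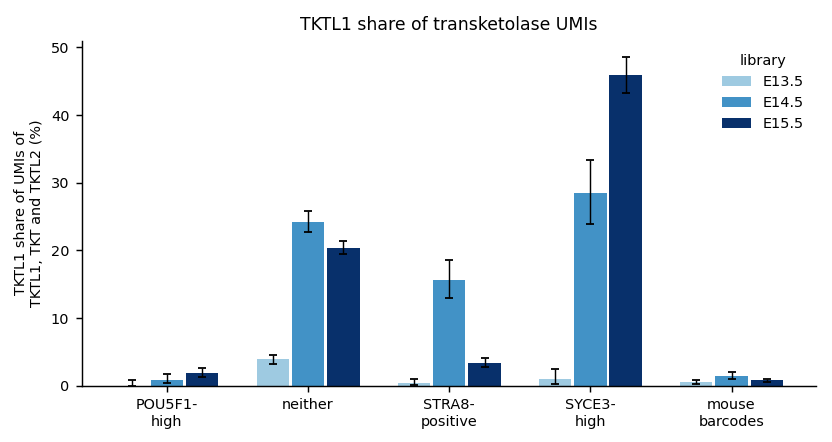
Percent of the UMIs of TKTL1, TKT and TKTL2 that belong to TKTL1, by germ cell state and in mouse barcodes, 1 bar for each library with 95% Clopper-Pearson intervals. The share reaches 45.9% in SYCE3-high cells of E15.5, where 24.0% of cells had a TKTL1 UMI, and stays under 4% in every E13.5 sum. The intervals treat UMIs as independent.

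TALDO1, the transaldolase, was lowest in POU5F1-high and highest in SYCE3-high cells of every library. POU5F1-high cells had 105, 118 and 133 CPM of TALDO1, and neither cells had 198, 201 and 241. STRA8-positive cells had 196, 231 and 269 CPM, and SYCE3-high cells had 269, 330.3 and 329. The SYCE3-high sums did not overlap with the POU5F1-high sums. TALDO1 rose in STRA8-positive against POU5F1-high cells (log2 fold change 0.44 ± 0.08, edgeR adjusted p = 4.09e-05) and in SYCE3-high against STRA8-positive cells (0.34 ± 0.08, adjusted p = 8.38e-04), each in 3 of 3 libraries. Leaving the library out of the model ended the second call at 0.35, and library totals alone gave 0.96 and 0.42. In E13.5, TALDO1 lay at 146 CPM in the lowest and 269 CPM in the top of the SYCE3 bins, while TKTL1 lay at 2.79 and 1.5 CPM. Mouse barcodes had 28.1 to 37.5 CPM.

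PGD, which makes NADPH in the oxidative arm, was nearly even in CPM across states. POU5F1-high cells had 62.6, 69.6 and 87.5 CPM of PGD, neither cells 79.4, 65.2 and 83.9, STRA8-positive cells 71.3, 70.1 and 81.8, and SYCE3-high cells 66.7, 68.2 and 73.3 CPM, and the states overlapped. A UMI was found in 95.2%, 90.3% and 95.3% of germ cells. Relative to the other genes, under TMM scaling, PGD fell in SYCE3-high against POU5F1-high cells by 0.70 ± 0.10 on the log2 scale (edgeR adjusted p = 4.43e-06). On library totals alone it was -0.10 and lost its call. PGLS, the lactonase of the same arm, had 33.5 ± 4.33 CPM in SYCE3-high cells against 60.0 ± 13.2 in POU5F1-high cells (SD, n = 3) and fell by 1.44 ± 0.13 (adjusted p = 5.80e-09).

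RPIA, the ribose-5-phosphate isomerase, was likewise lowest in POU5F1-high and highest in SYCE3-high cells of every library. POU5F1-high cells had 23.9, 19.2 and 24.1 CPM of RPIA, neither cells 49.3, 42.8 and 49, STRA8-positive cells 53.1, 41.8 and 47.7, and SYCE3-high cells 70.8, 46.8 and 62.3 CPM. POU5F1-high sums lay below those of every other state. RPIA rose in STRA8-positive against POU5F1-high cells (log2 fold change 0.55 ± 0.10, edgeR adjusted p = 5.30e-05) and in SYCE3-high against POU5F1-high cells (0.81 ± 0.10, adjusted p = 6.13e-07). Its rise in SYCE3-high against STRA8-positive cells was small (0.26 ± 0.10, adjusted p = 0.0270) and lost its call without E13.5 (0.22), without E15.5 (0.26) and under 4 other settings.

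RPE, the epimerase that turns ribulose-5-phosphate towards xylulose-5-phosphate, differed little between states. POU5F1-high cells had 28.0, 22.2 and 24.1 CPM of RPE, neither cells 27.8, 26.6 and 27.1, STRA8-positive cells 28.8, 29.4 and 30.8, and SYCE3-high cells 31.8, 20.9 and 24.1 CPM. The states overlapped. Its paralog RPEL1 is not among the features, so RPEL1 reads, where present, could have been counted as RPE. Under TMM scaling RPE fell in SYCE3-high against POU5F1-high cells by 0.54 ± 0.13 (edgeR adjusted p = 8.03e-04), while library totals alone gave 0.05 with no call. The other RPE comparisons lay near the threshold: SYCE3-high over STRA8-positive passed it at -0.49 without E13.5, and STRA8-positive over POU5F1-high passed it under 6 settings (-0.33 to -0.25), turning to 0.27 on library totals alone.

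Between libraries the partners differed far less than TKTL1, by under 2-fold, and TALDO1 and PGD had more CPM in E15.5 than in E13.5 in every state. TALDO1 in E15.5 over E13.5 had a ratio of CPM of 1.20 in all germ cells (95% counting interval 1.17 to 1.24), 1.37 in STRA8-positive cells (1.29 to 1.46) and 1.22 in SYCE3-high cells (1.12 to 1.33). For E14.5 over E13.5 it was 1.02 in all germ cells (0.977 to 1.06) and 1.23 in SYCE3-high cells (1.10 to 1.36). RPIA in all germ cells was lower in E14.5 than in E13.5, with a ratio of 0.756 (0.695 to 0.821). With all germ cells summed, 0 of the 5 passed the size rule in any of the 3 comparisons, in either direction, against 0.498% of genes for E14.5 over E13.5, 0.238% for E15.5 over E13.5 and 0.324% for E15.5 over E14.5, so few that a count of 0 says nothing particular about the partners. The count was also 0 within each state. There 0.721%, 0.471% and 0.663% of genes passed in POU5F1-high cells in those 3 comparisons, 0.35%, 0.342% and 0.308% in neither cells, 0.261%, 0.327% and 0.288% in STRA8-positive cells and 2.4%, 0.968% and 1.37% in SYCE3-high cells. The partners' log2 differences of CPM + 1, in all germ cells and within states, lay between -0.59 (RPIA, E14.5 over E13.5 in SYCE3-high cells) and 0.48 (PGD). In STRA8-positive cells TKTL1 was at 36.1 CPM in E14.5 against 0.728 in E13.5, while TKT was at 195 against 183, TALDO1 at 231 against 196, PGD at 70.1 against 71.3, RPIA at 41.8 against 53.1 and RPE at 29.4 against 28.8. In SYCE3-high cells TKTL1 was at 116 CPM in E15.5 against 1.5 in E13.5, and TKT at 135.3 against 149.9.

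Between states the partners split. In STRA8-positive against POU5F1-high cells 3 of the 5 partners passed an edgeR adjusted p of 0.05, TALDO1 and RPIA higher and PGD lower (0.51 ± 0.09, adjusted p = 7.85e-05), where 69.6% of 15207 genes passed, 35.3% higher and 34.2% lower. TKT was at 0.06 ± 0.08 (95% interval -0.11 to 0.23, adjusted p = 0.522) and RPE at -0.25 ± 0.11 (adjusted p = 0.0593). In SYCE3-high against STRA8-positive cells 3 of 5 passed, TALDO1 and RPIA higher and TKT lower, where 50.5% of genes passed, 25.1% higher and 25.4% lower, and PGD (-0.18 ± 0.10, adjusted p = 0.144) and RPE (-0.30 ± 0.13, adjusted p = 0.0583) did not. In SYCE3-high against POU5F1-high cells all 5 passed, TALDO1 and RPIA higher and TKT (0.52 ± 0.09, adjusted p = 2.03e-05), PGD and RPE lower, where 74.1% of genes passed, 38.3% higher and 35.8% lower. Shares this near to those of all genes say nothing particular about the 5 partners. The 3 comparisons share sums, and the replicates are libraries of different mouse stages.

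How the sums are scaled decides the direction for 3 of the partners. Without TMM the median log2 fold change of all genes was 0.55 in STRA8-positive over POU5F1-high cells, 0.07 in SYCE3-high over STRA8-positive cells and 0.64 in SYCE3-high over POU5F1-high cells, against 0.04, -0.01 and 0.04 with TMM. Higher and lower calls then split 8886 to 2605, 4424 to 3208 and 8976 to 2838, against 5375 to 5206, 3817 to 3856 and 5829 to 5446 with TMM. On totals TKT in STRA8-positive over POU5F1-high cells was 0.59 and called, in SYCE3-high over POU5F1-high cells 0.08 and not called, and TALDO1 (1.38) and RPIA (1.41) remained higher in SYCE3-high over POU5F1-high cells. The 80 ribosomal protein genes took 11.4% to 12.6% of UMIs in SYCE3-high cells against 25.8% to 29.8% in POU5F1-high cells, and their part in the difference was not tested. Mouse supporting cell markers also moved with the states: the 7 genes summed to 90.3 to 203 CPM in SYCE3-high cells and 187 to 267 CPM in STRA8-positive cells against 31.3 to 61.1 CPM in POU5F1-high cells, and to 2382 to 2761 CPM in mouse barcodes. The 5 stromal markers summed to 56.3 to 106 CPM in SYCE3-high cells against 12.4 to 27.2 CPM in POU5F1-high cells and 1573 to 2410 CPM in mouse barcodes. The 3 mouse surface epithelium markers summed to 174.3, 199.3 and 144.9 CPM in all germ cells against 55.8, 62.3 and 244.2 CPM in mouse barcodes. They were thus higher in germ cells in E13.5 and E14.5 and lower in E15.5. KRT19 is in both this list and the supporting cell list, and each list summed to 228 CPM in STRA8-positive cells of E13.5. How much of any of these marker sums in germ cells is mouse RNA was not tested. A different set of 7 somatic markers, AMHR2, WNT4, FOXL2, UPK3B, COL1A1, COL3A1 and PDGFRA, which lacks KRT19, was used to leave out cells. Without the germ cells that held 3 or more UMIs of that set the calls of TALDO1 kept their directions. The RPIA call in SYCE3-high against STRA8-positive cells was then lost at 0.25.

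**Figure D4:**
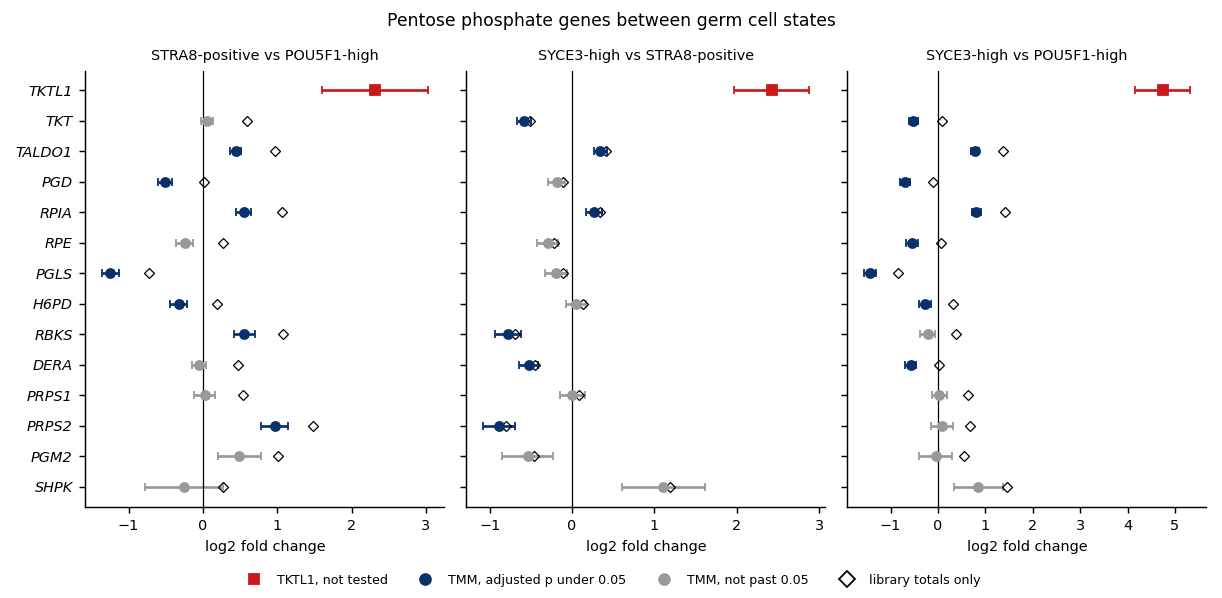
Log2 fold change between germ cell states (first named over second, horizontal axis) of TKTL1, its 5 partners and 8 further pathway genes, with the standard error of the edgeR fit. Diamonds give the value on library totals alone. TALDO1 and RPIA lie right of 0 in all 3 panels under both scalings, while TKT, PGD and RPE change side between scalings in at least 1 panel. TKTL2, which was not tested, and PRPS1L1, near 0 outside SYCE3-high cells, are not drawn.

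Of 11 further pentose phosphate genes 10 were tested. In STRA8-positive against POU5F1-high cells 2 rose, 3 fell and 5 did not pass, where 35.3% of all genes rose and 34.2% fell (median log2 fold change -0.15, all genes 0.04). PRPS2, which makes phosphoribosyl pyrophosphate from ribose-5-phosphate, rose by 0.97 ± 0.18 and RBKS, ribokinase, by 0.56 ± 0.14, whereas PGLS fell by 1.24 ± 0.12. In SYCE3-high against STRA8-positive cells 1 rose and 4 fell, where 25.1% of all genes rose and 25.4% fell (median -0.29), among them PRPS2 by 0.89 ± 0.20 and DERA, deoxyribose-phosphate aldolase, by 0.53 ± 0.11. In SYCE3-high against POU5F1-high cells 1 rose and 4 fell, where 38.3% of all genes rose and 35.8% fell (median -0.13). Counts this small say nothing particular about the list. On library totals these counts were 5 and 1, 1 and 4, and 6 and 2. The riser in the last 2 comparisons was PRPS1L1, a germ-line paralog of PRPS1 known from human testis, with 3.75, 2.27 and 1.84 CPM in SYCE3-high cells from 10, 5 and 10 UMIs. In STRA8-positive cells it had 0, 0 and 1 UMIs and in POU5F1-high cells 0, 0 and 1, but mouse barcodes had 5.08 to 7.28 CPM. PRPS1, its housekeeping counterpart, was at 0.03 ± 0.16 in SYCE3-high over POU5F1-high cells (95% interval -0.30 to 0.35).

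Of the NADPH and glutathione genes 19 were tested. In STRA8-positive against POU5F1-high cells 8 rose and 5 fell, and in SYCE3-high against STRA8-positive cells 2 rose and 8 fell. In SYCE3-high against POU5F1-high cells 9 rose and 8 fell. The medians in this order were 0.07, -0.29 and 0.16. Over all genes 35.3% rose and 34.2% fell, 25.1% and 25.4%, and 38.3% and 35.8%, so these counts are not particular to the list. On library totals the counts were 14 and 2, 2 and 8, and 10 and 5. NNT, the mitochondrial transhydrogenase that makes NADPH, had 27.0 CPM in STRA8-positive cells against 3.5 CPM in POU5F1-high cells and rose by 2.29 ± 0.21 (edgeR adjusted p = 6.92e-09). IDH1, cytosolic isocitrate dehydrogenase, rose by 0.71 ± 0.10 in the same comparison. GPX1 and GPX4, the glutathione peroxidases, fell by 1.04 ± 0.06 and 1.09 ± 0.07 in SYCE3-high against STRA8-positive cells, also on library totals (-0.97 and -1.02), and GCLM, the modifier subunit of glutathione synthesis, rose by 0.74 ± 0.13.

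Of the thiamine genes, which supply the cofactor of transketolase, 4 of 6 were tested. THTPA, which removes thiamine triphosphate, rose by 1.80 ± 0.16 in STRA8-positive against POU5F1-high cells, at 28.0 CPM against 5.1 CPM. The counts of rises and falls in the 3 comparisons were 1 and 1, 0 and 3, and 1 and 3, and on library totals 2 and 1, 0 and 3, and 1 and 1, where 69.6%, 50.5% and 74.1% of all genes were called in either direction.

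Of 10 glycolytic genes tested 1 rose and 7 fell in STRA8-positive against POU5F1-high cells, 1 rose and 6 fell in SYCE3-high against STRA8-positive cells, and 2 rose and 7 fell in SYCE3-high against POU5F1-high cells, with medians of -0.53, -0.34 and -0.69. Over all genes 35.3% rose and 34.2% fell, 25.1% and 25.4%, and 38.3% and 35.8%. On library totals the counts were 3 and 2, 1 and 6, and 2 and 4. HK1, a hexokinase, had 21.4 CPM in STRA8-positive cells against 58.5 CPM in POU5F1-high cells and fell by 2.02 ± 0.11, and ALDOA, aldolase A, fell by 1.62 ± 0.07. TPI1, triose-phosphate isomerase, rose by 1.01 ± 0.08, and HK2 rose by 0.85 ± 0.16 in SYCE3-high against STRA8-positive cells. TIGAR, a phosphatase known to divert glucose into the pentose phosphate pathway, had 42.2 CPM in SYCE3-high cells against 45.4 CPM in POU5F1-high cells. Between libraries 0 genes of these 4 lists passed the size rule in all germ cells, where 0.498%, 0.238% and 0.324% of all genes did, which says nothing particular about them.

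Within a state, cells rich in TKTL1 were set beside cells without it. In neither cells of E15.5, 63 cells with 100 CPM or more of TKTL1 had 166 CPM of TKT (95% exact Poisson interval 152 to 181) against 191 (185 to 197) in 397 cells with no TKTL1 UMI. TALDO1 was at 184 against 249 CPM, PGD at 60.3 against 87.3 and RPIA at 63.6 (55.0 to 73.2) against 47.2 (44.2 to 50.3), so RPIA was higher and 3 partners lower in the TKTL1-rich cells. RPE was at 31.3 against 27.0 CPM, with overlapping intervals. The 2 groups also differed in EGR4 and PIWIL4, taken up below. EGR4 had a UMI in 60.3% of the TKTL1-rich cells against 3.27% of those without TKTL1, and PIWIL4 in 73.0% against 7.30%. Their part in the partner values was not tested. PGLS, of the wider list, was higher in the same TKTL1-rich cells, at 88.4 (78.2 to 99.6) against 37.9 CPM (35.3 to 40.7). In neither cells of E14.5 PGLS was at 51.1 (41.7 to 62.0) against 39.0 CPM (35.1 to 43.2), with overlapping intervals. In SYCE3-high cells of E15.5 PGLS was at 35.7 against 34.3 CPM. In neither cells of E14.5, 43 TKTL1-rich cells had 193 CPM of TKT against 181.9 in 201 cells without, with overlapping intervals, and TALDO1 was lower, at 167 against 212 CPM. In SYCE3-high cells of E15.5 TKT was lower in the 17 TKTL1-rich cells, at 102 (82.2 to 126) against 141 CPM (129.9 to 154) in 79 cells without, while TALDO1 was at 372 (332 to 414) against 323 (305 to 341), with overlapping intervals. In STRA8-positive cells of E15.5 TKT was higher in the 7 TKTL1-rich cells, at 274 (217 to 341) against 199 CPM (191 to 207) in 238 cells without. In STRA8-positive cells of E14.5 TKT was level, at 192 (147 to 246) in 9 TKTL1-rich cells against 191 CPM (173 to 210) in 61 cells without. TKT thus had no single direction over these sums, and the higher value was seen in 1 library alone. These intervals treat UMIs as independent and cells as 1 sum, and no test was made.

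**Figure D5:**
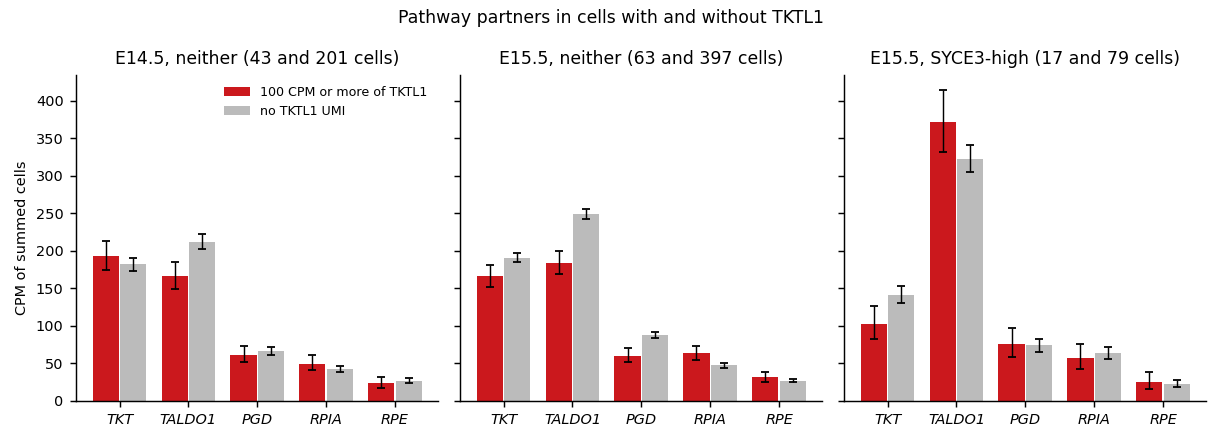
CPM (linear axis) of the 5 partners in summed cells with 100 CPM or more of TKTL1 (red) and with no TKTL1 UMI (grey), with 95% exact Poisson intervals, in 3 states with at least 17 TKTL1-rich cells. TALDO1 is lower in TKTL1-rich neither cells (184 against 249 CPM in E15.5), and no partner is higher in the TKTL1-rich cells of all 3 panels.

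The TKTL1-rich cells differed from the others in genes picked after their values were seen. In neither cells of E15.5, SYCP1, a synaptonemal complex gene, was at 127 CPM in TKTL1-rich cells against 10.1 CPM in cells without TKTL1, EGR4 at 88.4 against 0.750 and PIWIL4, of the piRNA pathway, at 111 against 1.95. Their median share of mitochondrial UMIs was 6.05% against 8.89%, and its part was not tested. Germ cells with a UMI of both EGR4 and PIWIL4 were 5, 16 and 53, of which 4, 15 and 48 were neither cells. Those with both held 25.7%, 13.9% and 33.1% of TKTL1 UMIs. In E15.5 the cells with both had 245 CPM of TKTL1 (226 to 264) against 24.2 CPM in the other 1060 germ cells, while TKT was at 163 against 173 CPM. In the same comparison TALDO1 was at 163 against 234 CPM, PGD at 56.5 against 84.6, RPIA at 61.3 against 43.3 and RPE at 20.1 against 27.3. In SYCE3-high cells of E15.5 EGR4 was at 2.30 against 2.27 CPM, and SYCP1 at 297 against 61.4 CPM.

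TEX28, a testis-expressed gene that lies next to TKTL1 on chromosome X of the T2T-MFA8v1.1 assembly, was found mostly in the same cells. In neither cells of E15.5 it had 24.1 CPM (19.0 to 30.3) in TKTL1-rich cells against 0 in the 397 cells without TKTL1, where 0 UMIs leave an upper Poisson bound of 0.184 CPM. In SYCE3-high cells of E14.5 it had 41.3 CPM in 5 TKTL1-rich cells against 0 in 39 cells without. STRA8-positive cells had 0 TEX28 UMIs in all 3 libraries, also among the 9 TKTL1-rich cells of E14.5. EMD, on the other side of TKTL1, was at 43.4 CPM (36.3 to 51.4) against 24.6 CPM (22.5 to 26.9) in the same neither cells of E15.5, and FLNA beyond it at 57.7 against 101.5 CPM.

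Over the 12 sums of library and state, the genes most like TKTL1 by Pearson's r of log2(CPM + 1), among 9152 genes with 20 CPM in at least 1 sum, were RABIF (0.89), SNRNP35 (0.88), C15H9orf9 (0.87), NDUFS3 (0.86) and MED19 (0.85). Their own range was narrow, for example 50.4 to 67.1 CPM for RABIF. Of the partners, TALDO1 had r = 0.70 and stood 271st, RPIA 0.45, TKT 0.24, PGD 0.12 and RPE -0.27. The 12 sums share 3 libraries and differ in depth, so these values are a description.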

How the data were processed

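Raw UMI counts for each gene and called barcode, deposited by the authors, came from Cell Ranger 6.0.1 (per the file headers) on 10x Chromium 3 prime v3.1 libraries. Genome build, annotation and doublet treatment: not given in the sources used here. No doublet caller was run, and 1 alternative left out the 5% of germ cells with the most UMIs. For CPM the UMIs of a gene were divided by those of all genes in the same cells. Of 9282 LOC names, 669 were given a symbol by gene number. Germ cells held 31364271, 24342943 and 57505722 UMIs, so 3 UMIs, taken as the floor, stand for 0.0957, 0.123 and 0.0522 CPM.

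The members, lists and limits were chosen with earlier results of these data known. Counts summed per library and state (12 sums, 6 residual degrees of freedom before edgeR's sharing across genes) were tested with edgeR 4.0.16 (R 4.3.3, limma 3.58.1): filterByExpr, TMM, quasi-likelihood test, library as block, Benjamini-Hochberg adjustment over 15207 genes, threshold 0.05. POU5F1, STRA8 and SYCE3 were left out. The libraries pair the states by design, since each holds all 4. The fit was also run on simulated counts with known changes in SYCE3-high sums alone and no library effect. That setting is simpler than these data, and its outcome is not reported here. Standard errors are the log2 fold change over the root of F. No p was made between libraries. Shares thinned to 10000 UMIs are expected values. DESeq2 1.42.0 was an alternative. Other tools were matplotlib 3.10.9, pandas 2.3.3, scipy 1.17.1 and numpy 2.4.6 under Python 3.11.15.

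Genes named are the members, list members with the largest or smallest changes or 20 CPM or more, 5 neighbours on each side of TKTL1 and the 5 genes most like it. SYCP1, EGR4, PIWIL4 and the limit of 100 CPM were chosen after values were seen. NADK, TXNRD1 and HBA1 were not among the features used. Some members of the wider lists enter the counts and are not reported here by name.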

Additional observations from a re-analysis of the deposited data

Results flagged for a closer look

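TKTL1 stood in opposite order in E13.5 and E15.5 for SYCE3-high against neither cells. The log2 difference of CPM + 1 was -1.71 in E13.5 (1.5 against 7.17 CPM), -0.26 in E14.5 (48.2 against 57.7 CPM) and 1.27 in E15.5 (116 against 47.6 CPM). The difference between libraries was not tested, since each stage has 1 library.

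Barcodes outside the germ cell limits also held TKTL1. In E13.5 the 190 barcodes with 2 to 20% mitochondrial UMIs and from 1000 to under 10000 UMIs had 53.5 CPM (95% exact Poisson interval 32.2 to 83.5), from 19 UMIs in 14 barcodes at a median of 1386.5 UMIs, against 4.34 CPM in E13.5 germ cells. Those barcodes had 217 CPM of TKT, 245 CPM of TALDO1 and 144 CPM of DDX4, and 8.44 CPM of the supporting cell gene AMHR2. The E13.5 library shared 643 barcode sequences with E15.5 and 199 with E14.5, whose germ cells had 34.5 and 39.1 CPM of TKTL1. Whether the 190 barcodes were among the shared ones, or held RNA of another library, was not tested. In E14.5 the 33 such barcodes had 47.6 CPM (13 to 122) from 4 UMIs, with a floor of 35.7 CPM. In E15.5 the 258 such barcodes had 3.91 CPM, under their floor of 5.87 CPM. Barcodes with over 20% mitochondrial UMIs had 10.6 CPM in E13.5 (10 UMIs, 8 of them in 1 barcode), 0 in E14.5 and 18.7 CPM in E15.5 (21 UMIs, 14 of them in 1 barcode). Each value above its floor was flagged. The flagged values also exceed the mouse barcodes of their library (1.69, 5.50 and 4.22 CPM).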

How the results depend on the processing

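Counts of genes past the threshold stayed within 1.5 times the reported 10581, 7673 and 11275 (STRA8-positive against POU5F1-high, SYCE3-high against STRA8-positive, SYCE3-high against POU5F1-high) under the alternatives, except when cells were thinned to 10000 UMIs (6769, 4300 and 7245, of 11495 genes tested). Leaving out 1 library gave 8522 to 10256, 5242 to 7073 and 9415 to 11221. Without the replicate block for library the counts were 9459, 6044 and 10457, and the TALDO1 and RPIA calls in SYCE3-high against STRA8-positive cells were lost (0.35 and 0.26); it changed no other call of the partners. Of the partners' directions, 4 turned on library totals alone, through the scaling itself: TKT (0.080) and RPE (0.054) in SYCE3-high over POU5F1-high cells, PGD (0.0095) and RPE (0.27) in STRA8-positive over POU5F1-high cells. TKTL1 in STRA8-positive over POU5F1-high cells turned to -0.79 with the POU5F1 limit at the top 30%; the cause was not tested. Of 300 values of the partners under alternatives, 277 kept direction and call.

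The TKTL1 difference of E14.5 over E13.5 (2.91) was 3.19 with 4 to 15% mitochondrial UMIs, 3.50 without cells holding somatic markers, 2.24 with a pseudocount of 5 CPM and 3.46 with equal weight to the states. That of E15.5 over E13.5 (2.74) was 2.32 thinned, 2.08 with the larger pseudocount and 3.72 with equal weight. That of E15.5 over E14.5 (-0.17) was -0.53 without cells holding somatic markers, -0.51 without cells holding EGR4 and PIWIL4 (chosen after seeing the data), -0.33 thinned, -0.29 with DESeq2 size factors and 0.27 with equal weight, and none of these reached 2-fold. In E13.5 the TKTL1 levels of STRA8-positive and SYCE3-high cells rest on 5 and 4 UMIs. The floor of 3 UMIs per sum was highest in SYCE3-high cells, at 1.12, 1.36 and 0.553 CPM in order of stage.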
